A study of Mus musculus with 8 samples.

Results

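The nuclear-encoded subunits of the mitochondrial respiratory chain and of ATP synthase were examined in camptothecin-treated mouse mammary tumour cells. All non-control probes were taken whose symbol names a structural subunit of complex I (Nduf a, b, c, s and v genes), complex II (Sdh), complex III (Uqcr), complex IV (Cox4 to Cox8) or complex V (Atp5). This gave 83 genes on 103 probes, of 32053 features and 41174 probes on the array. The rule used names only and no measured value, but the members were chosen with earlier results of these data known. By complex there were 35 genes of complex I, 4 of complex II, 8 of complex III, 19 of complex IV, among them Ndufa4, which is now placed there, and 17 of complex V.

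RNA from 8 samples of cells from FVB mice with PyMT (polyoma middle T) mammary tumours was labelled with Cy5, each on an array of its own, against a Cy3-labelled reference mix from 11 mouse cell lines. The first experiment used line WTA, infected with the lentiviral hairpin construct LKO1-shSnd1 (Snd1 knockdown, 3 arrays) or with the empty LKO1 vector (vector, 3 arrays) and selected with puromycin. The second used line KO2, which lacks Mtdh, given back Mtdh with the point mutation W391D, which the series describes as deficient in Snd1 binding (W391D rescue, 1 array), or wild-type Mtdh from LmPGK-mMtdh-ires2-GFP (wild-type rescue, 1 array), with cells sorted for GFP. Every sample had received 50 uM CPT for 36 h, and no untreated cells were analysed here. A single hairpin construct is named, its control is an empty vector and not a hairpin without a target, and both rescues are of 1 line with no replicate. Separate cultures are not stated for the replicates, and the p-values therefore speak of array-to-array spread alone, which may be technical.

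Complex I takes electrons from NADH and complex II from succinate, coenzyme Q carries them to complex III, cytochrome c carries them to complex IV, and complex IV passes them to oxygen. Complexes I, III and IV pump protons, and ATP synthase, complex V, makes ATP from the proton gradient. Except for complex II, each enzyme mixes nuclear-encoded subunits, the subject here, with a few core subunits encoded by mitochondrial DNA, and their supply has to match for assembly. Many nuclear genes of the chain are known targets of NRF1, of the ETS factor GABP (NRF2), of the oestrogen-related receptors and of YY1. None of the mitochondrially encoded subunits was found by name on the array.

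The promoters of Ndufa9, Atp5h and Cox7a1, the 3 genes with the largest decreases, of Cox7a2l, the gene with the largest increase, and of Atp5g3, an isoform gene of the c ring, are shown because these transcripts carry the differences described below. Each is 250 bases before to 50 bases after the annotated start, 5′ to 3′ on the gene's own strand, from RefSeq with build GRCm38.p6. Capitals mark matches on either strand to an NRF1 motif (GCGCANGCG), an ETS core (CCGGAAG), a YY1 motif (AAGATGGCG) or an oestrogen-related receptor motif (AAGGTCA).
Ndufa9, chr6:126849095-126849394, minus strand: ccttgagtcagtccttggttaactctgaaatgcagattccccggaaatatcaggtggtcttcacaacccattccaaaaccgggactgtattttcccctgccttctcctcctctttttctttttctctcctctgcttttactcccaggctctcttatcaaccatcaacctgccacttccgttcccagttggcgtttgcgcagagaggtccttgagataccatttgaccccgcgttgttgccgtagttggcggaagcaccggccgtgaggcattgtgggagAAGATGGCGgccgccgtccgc
Atp5h, chr11:115419870-115420169, minus strand: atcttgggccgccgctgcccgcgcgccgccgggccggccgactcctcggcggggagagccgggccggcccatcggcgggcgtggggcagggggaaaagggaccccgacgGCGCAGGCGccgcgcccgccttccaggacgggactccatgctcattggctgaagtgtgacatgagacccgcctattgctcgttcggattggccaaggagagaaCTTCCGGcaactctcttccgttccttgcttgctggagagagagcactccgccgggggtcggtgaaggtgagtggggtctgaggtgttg
Atp5g3, chr2:73911277-73911576, minus strand: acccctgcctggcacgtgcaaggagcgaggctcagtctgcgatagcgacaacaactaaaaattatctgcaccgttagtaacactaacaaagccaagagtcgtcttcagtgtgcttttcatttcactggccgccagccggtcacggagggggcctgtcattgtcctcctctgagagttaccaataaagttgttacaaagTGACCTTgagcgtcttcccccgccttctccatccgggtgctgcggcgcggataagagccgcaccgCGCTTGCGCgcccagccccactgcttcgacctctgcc
Cox7a1, chr7:30183921-30184220, plus strand: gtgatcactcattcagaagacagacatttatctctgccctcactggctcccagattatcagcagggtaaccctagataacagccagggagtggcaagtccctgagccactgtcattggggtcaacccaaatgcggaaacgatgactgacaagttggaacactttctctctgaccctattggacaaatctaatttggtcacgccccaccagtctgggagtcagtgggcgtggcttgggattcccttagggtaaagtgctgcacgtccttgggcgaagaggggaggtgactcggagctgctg
Cox7a2l, chr17:83514284-83514583, minus strand: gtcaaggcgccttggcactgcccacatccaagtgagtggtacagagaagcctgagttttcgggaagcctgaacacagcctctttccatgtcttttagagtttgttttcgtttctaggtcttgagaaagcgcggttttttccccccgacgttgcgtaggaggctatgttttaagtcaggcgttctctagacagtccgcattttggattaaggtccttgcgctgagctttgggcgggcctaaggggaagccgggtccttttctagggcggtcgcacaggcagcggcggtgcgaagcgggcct

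The Ndufa9 window held the YY1 letters, Atp5h held an NRF1 and an ETS match, Atp5g3 held an NRF1 match and an oestrogen-related receptor match, and the windows of Cox7a1 and Cox7a2l held none of the 4. A promoter was listed for 68 of the 83 members, 5 of them with more than 1, of which the first listed was read. The NRF1 motif was in 27.9% of the 68 windows, against 10.7% of 13725 named genes tested here and 6.47% of all 27025 genes in the table. The ETS core was in 23.5%, against 13.9% and 9.12% of the same sets, the YY1 motif in 8.82%, against 2.39% and 1.49%, and the receptor motif in 11.8%, against 3.58% and 4.66%. None of the 4 motifs contains another. A match is a description of letters and not a measured site.

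Label checks came first. Snd1, the hairpin's target, had log2 ratios to the reference of -3.23, -3.33 and -3.44 in the Snd1 knockdown and -2.49, -2.40 and -2.43 in vector, so the groups were apart. It was 1.86-fold lower in the knockdown (adjusted p = 1.04e-05, limma, n = 3 and 3). Mtdh differed by -0.12 (adjusted p = 0.118) in these cells. In the rescue line it read -0.10 in W391D rescue and 0.42 in wild-type rescue, so the 2 rescues also differed by -0.52 in the level of Mtdh itself. Arrays had median Cy5 signals of 158 to 363 over median backgrounds of 61 to 72, and the number of arrays limits the precision.

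Subunit transcripts of complexes I and V were more often called lower than higher in the Snd1 knockdown, and members of 1 complex went both ways. The smaller complexes II (1 higher, 2 lower) and III (0 and 3) leaned the same way, and complex IV had 5 of each. Of the 83 genes, 82 were tested because their Cy5 signal stood well above background on 3 or more of the 6 arrays, the exception being Cox8c. In the knockdown 17 were higher, 37 were lower and 28 did not pass an adjusted p under 0.05. Among all 25682 features tested, 23.7% were higher and 21.1% lower, 44.8% in all, so the share of members called higher (20.7%) was near the background and the share called lower (45.1%) was above it. The members' median log2 difference, knockdown minus vector, was -0.087, beside 0.023 over all features. From the Cy5 channel alone, without the reference, 4 members were higher and 21 lower, while 14% of all features were higher and 16.2% lower.

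These genes give bright spots, and calls are commoner among bright spots. Of the 82 tested, 77 lay in the brightest 25% of features, where 34.4% of 6421 features were higher, 36.5% lower and the median difference was -0.010. Against that share fewer members were higher and more were lower. The members were brighter still, with a median log2 brightness of 14.3, beside 11.8 for the brightest 25% of features. That set therefore did not match the members in brightness, and the part of brightness in their counts was not tested further. Differences were small: 1 member was called at least 1.5-fold higher (background 6.31%) and 4 at least 1.5-fold lower (background 5.81%). The 3 knockdown values lay above all 3 vector values for 19 members (background 28.7%) and below them for 40 (background 24.5%), 59 in all (background 53.2%). The median log2 ratio of the members to the reference was -0.015, 0.014 and -0.0043 on the knockdown arrays and 0.084, 0.14 and 0.13 on the vector arrays.

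**Figure D1:**
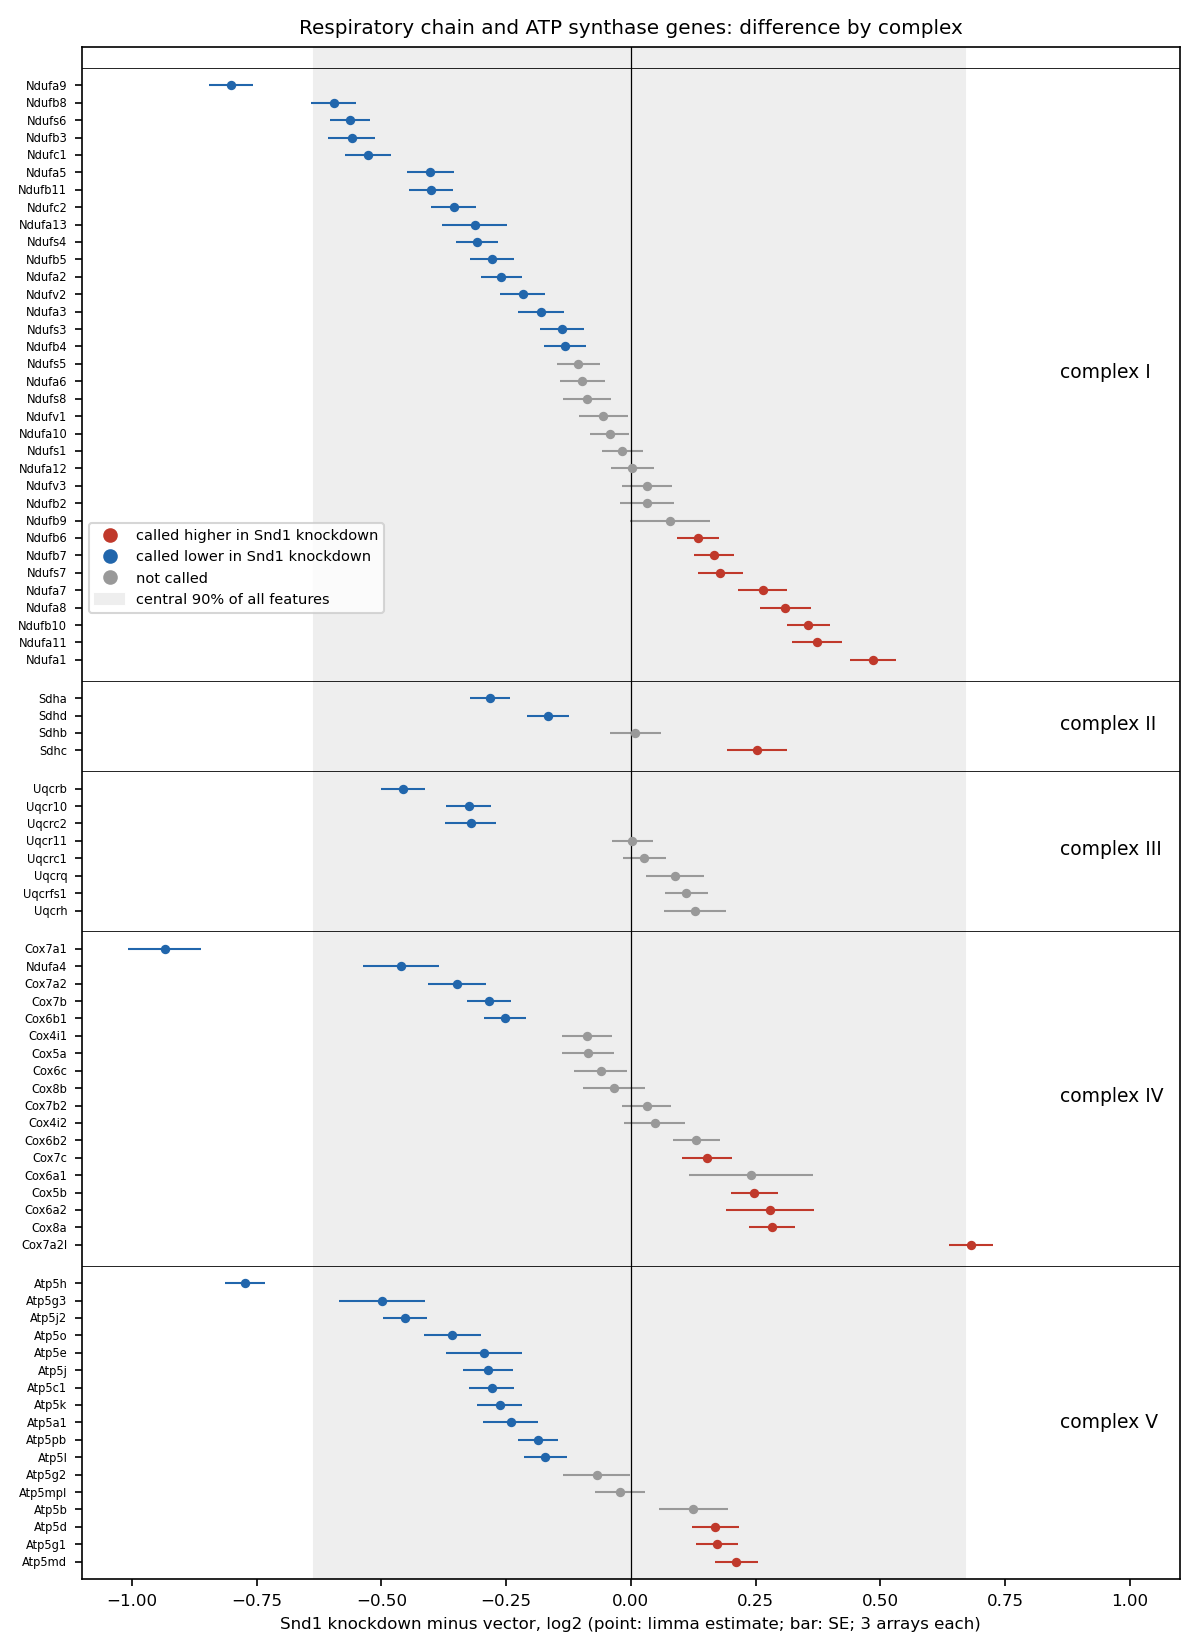
Log2 difference, Snd1 knockdown minus vector, of the tested subunit genes by complex, 1 of the 82 not drawn (point: limma estimate, bar: its SE, 3 arrays in each group). Red points were called higher, blue points lower and grey points neither at an adjusted p under 0.05, and the shaded band holds the central 90% of all features tested. Most members lie inside the band, with Cox7a1, Ndufa9 and Atp5h below it and Cox7a2l above it.

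Complex I had 8 genes higher and 16 lower of 35 (background 23.7% and 21.1%), with a median of -0.097. From Cy5 alone the enzyme had 2 higher and 10 lower (background 14% and 16.2%). Its 7 measured core subunits, which carry the NADH site and the iron-sulphur clusters, had 1 higher (Ndufs7, 0.18), 2 lower (Ndufv2, -0.22, and Ndufs3, -0.14) and 4 not called. The 28 accessory subunits, which surround and stabilise the core, had 7 higher and 14 lower and a median of -0.12. Ndufs3 and the accessory gene Ndufb6 lost the call when any 1 array other than knockdown replicate 1 was left out, Ndufb4 without knockdown replicate 2 or 3 or vector replicate 2 or 3, and Ndufa3 without knockdown replicate 2, with adjusted p-values of 0.0556 to 0.12.

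Ndufa9, an accessory subunit where the matrix and membrane arms meet, had log2 ratios to the reference of -0.31, -0.32 and -0.37 in the Snd1 knockdown and 0.44, 0.46 and 0.51 in vector. All knockdown arrays lay below all vector arrays, by far more than the spread within either group. It was 1.74-fold lower (log2 difference -0.80 ± 0.04 SE, adjusted p = 3.02e-06, limma), the largest decrease in complex I. Ndufb8, an accessory subunit of the membrane arm, read -0.68, -0.60 and -0.63 in the knockdown and -0.07, -0.03 and -0.02 in vector. Its groups did not overlap either, and it was 1.51-fold lower (adjusted p = 1.46e-05). Ndufs6, a zinc-binding subunit of the matrix arm, had log2 ratios of 0.28, 0.30 and 0.28 in the knockdown and 0.84, 0.86 and 0.84 in vector, a difference of -0.56 that 2 further probes gave as -0.51 and -0.52. The membrane-arm subunits Ndufb3 and Ndufc1 were lower by 1.47-fold (adjusted p = 2.9e-05) and 1.44-fold (adjusted p = 3.87e-05), again with no overlap between groups.

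Other genes of the same enzyme were higher in the same cells. Ndufa1, a small membrane-bound accessory subunit encoded on the X chromosome, had log2 ratios of 1.61, 1.51 and 1.60 in the Snd1 knockdown and 1.08, 1.08 and 1.11 in vector. Every knockdown array was above every vector array, and the gene was 1.4-fold higher (adjusted p = 6.2e-05), while its second probe gave 0.40. From Cy5 alone its difference was 0.26 with an adjusted p of 0.126. Ndufa11, which helps to hold the membrane arm together, read 2.37, 2.38 and 2.46 in the knockdown and 2.07, 1.96 and 2.05 in vector, apart in all arrays, and was 1.3-fold higher (adjusted p = 0.00043). Ndufb10 (0.36), Ndufa8 (0.31) and Ndufa7 (0.26) were also called higher without overlap between the groups.

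Complex II, whose 4 subunits are all nuclear, split. Sdha, the flavoprotein that oxidises succinate, had log2 ratios of -0.03, -0.07 and -0.06 in the Snd1 knockdown and 0.22, 0.22 and 0.23 in vector. The groups did not overlap, and Sdha was 1.22-fold lower (adjusted p = 0.000613), with its second probe at -0.15. The membrane anchors parted: Sdhd was lower (-0.17 ± 0.04 SE, adjusted p = 0.0121), and Sdhc, at -0.57, -0.51 and -0.70 in the knockdown and -0.89, -0.79 and -0.87 in vector, was 1.19-fold higher (adjusted p = 0.0096). The Sdhc call was lost when each array was centred on its median instead of fitted by loess (0.13, adjusted p = 0.217). Sdhb, the iron-sulphur subunit, differed by 0.0091 (adjusted p = 0.909) with overlapping groups.

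In complex III none of 8 genes was higher and 3 were lower (background 23.7% and 21.1%), while the median was 0.015. From Cy5 alone 0 were higher and 2 lower (background 14% and 16.2%). With the slide as a block 2 were higher, Uqcrfs1 and Uqcrh, and 3 lower (background 28.3% and 23.7%). The 3 lower were Uqcrb and Uqcr10, both small subunits, and Uqcrc2, a core subunit on the matrix side. Uqcrb had log2 ratios of -0.44, -0.45 and -0.47 in the Snd1 knockdown and 0.02, -0.05 and 0.04 in vector. All 3 knockdown arrays lay lower, and Uqcrb was 1.37-fold lower (adjusted p = 6.55e-05). Uqcr10 and Uqcrc2 were each 1.25-fold lower, with adjusted p-values of 0.000485 and 0.00113. The partner core subunit Uqcrc1 differed by 0.03 (adjusted p = 0.659) and the Rieske iron-sulphur protein Uqcrfs1 by 0.11 (adjusted p = 0.0683). Uqcrh, the hinge subunit, differed by 0.13 (adjusted p = 0.139), and by 0.19 without knockdown replicate 1 (adjusted p = 0.0137).

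Complex IV, cytochrome c oxidase, had 5 genes higher and 5 lower of 18 tested (background 23.7% and 21.1%), with a median of -0.0010. With the slide as a block 7 were higher and 5 lower (background 28.3% and 23.7%). The replicate number as a block gave the same counts (background 27.2% and 23%), and each block added Cox6a1 and Cox6b2. From Cy5 alone 1 was higher and 2 lower (background 14% and 16.2%). The enzyme held the largest decrease and the largest increase of all members. Both were in the COX7A family. Cox7a1, known as the isoform of heart and skeletal muscle, had log2 ratios of -0.83, -0.88 and -0.88 in the Snd1 knockdown and -0.10, 0.15 and 0.17 in vector. Each knockdown array was below each vector array, with vector replicate 1 the lowest of its group, and Cox7a1 was 1.91-fold lower (-0.93 ± 0.07 SE, adjusted p = 1.94e-05). Its spots had Cy5 signals of 860, 1279.5 and 1245 in the knockdown and 2071.5, 3612 and 3330 in vector, well above background on all 6 arrays.

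Cox7a2, the isoform found in most tissues, read 0.21, 0.09 and 0.00 in the Snd1 knockdown and 0.48, 0.43 and 0.44 in vector. It was lower in all 3 knockdown arrays, by 1.27-fold (adjusted p = 0.00152), and its second probe gave -0.28. Cox7a2l, a relative that links complexes III and IV in supercomplexes, had log2 ratios of -0.38, -0.37 and -0.32 in the knockdown and -1.080, -1.032 and -1.004 in vector. Here every knockdown array was the higher, and Cox7a2l was 1.6-fold higher (0.68 ± 0.04 SE, adjusted p = 6.81e-06), the one member called at least 1.5-fold higher.

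**Figure D2:**
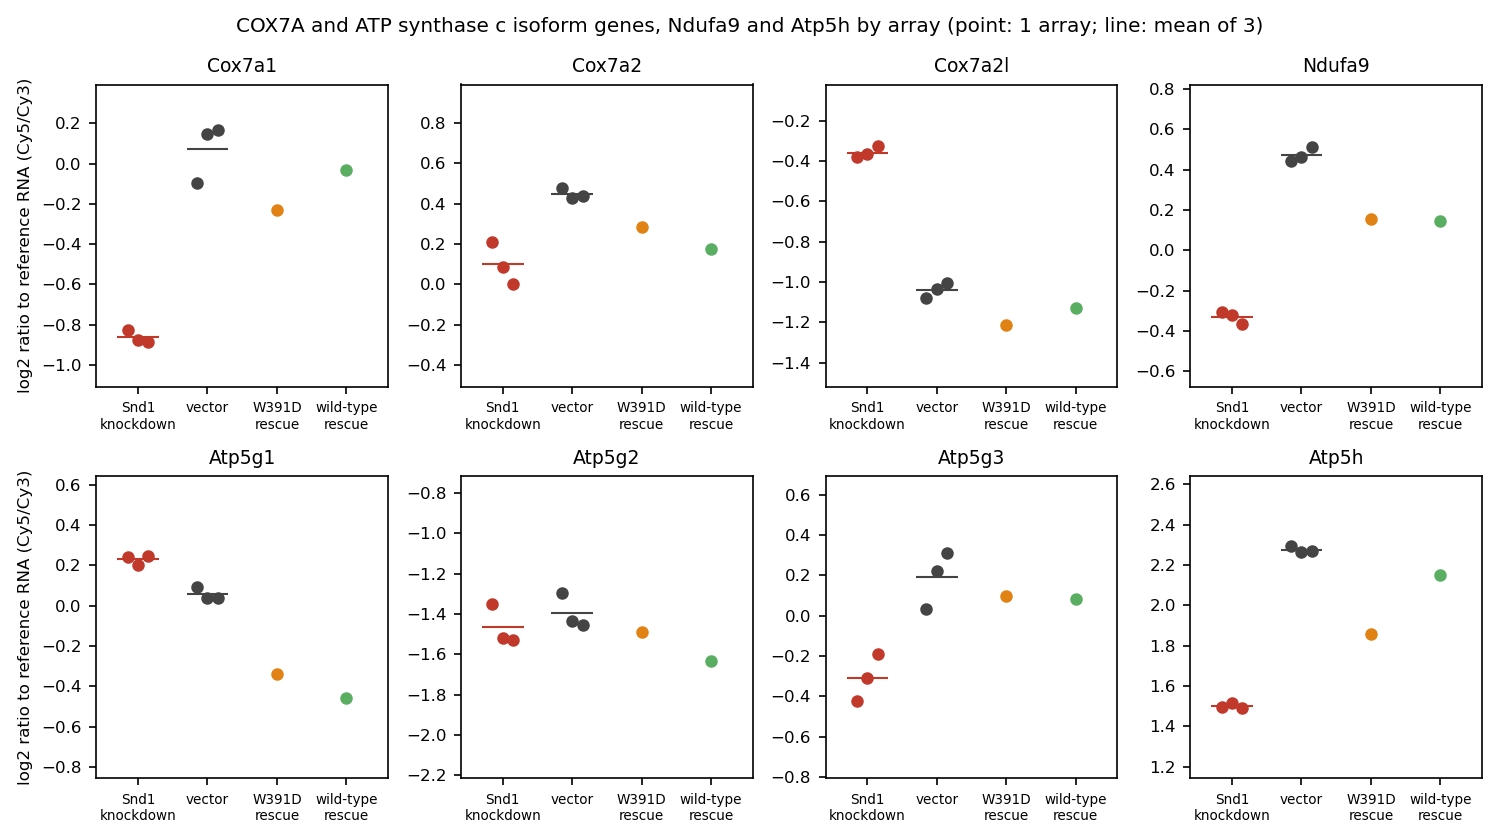
Log2 ratio to the reference RNA on each array for the COX7A family, the c-subunit genes of ATP synthase, Ndufa9 and Atp5h (point: 1 array, line: mean of the 3 arrays of a group). All panels span the same range of log2 units with different centres, and in Cox7a1, Cox7a2, Ndufa9, Atp5g3 and Atp5h the 3 knockdown arrays lie below the 3 vector arrays, whereas in Cox7a2l and Atp5g1 they lie above.

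Among the 12 general subunit genes of complex IV, 4 were higher and 4 lower (background 23.7% and 21.1%). Ndufa4, a late-binding subunit of the oxidase, read 0.73, 0.86 and 0.79 in the Snd1 knockdown and 1.09, 1.30 and 1.37 in vector. The groups were apart with vector replicate 1 nearest to the knockdown, and Ndufa4 was 1.38-fold lower (adjusted p = 0.0014). Cox7b (-0.28, adjusted p = 0.00094) and Cox6b1 (-0.25, adjusted p = 0.00154) were also lower, both in all 3 arrays. Cox8a, a small membrane subunit, was 1.22-fold higher (adjusted p = 0.00123), Cox5b, a zinc-binding subunit on the matrix side, 1.19-fold (adjusted p = 0.003), and Cox7c 1.11-fold (adjusted p = 0.0374), the last losing its call whichever of the 6 arrays was left out. Cox4i1 (-0.09), Cox6a1 (0.24) and Cox6c (-0.06) did not pass the test, and the Cox6a1 values of 1.55, 1.57 and 1.89 in the knockdown overlapped the 1.18, 1.55 and 1.55 in vector.

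Of the 7 tissue-restricted isoforms of complex IV, 6 were tested, and 1 was lower (Cox7a1) and 1 higher (background 21.1% and 23.7%). The higher was the muscle isoform Cox6a2, with log2 ratios of -3.60, -3.57 and -3.52 in the Snd1 knockdown and -3.84, -4.03 and -3.66 in vector. Those values are far below the reference in both groups. The difference of 0.28 ± 0.09 SE passed the test (adjusted p = 0.0329) but did not without knockdown replicate 1, 2 or 3 or vector replicate 1 or 2 (adjusted p from 0.0556 to 0.1). Cox4i2, known from lung, differed by 0.05, the testis isoforms Cox6b2 and Cox7b2 by 0.13 and 0.03, and Cox8b, of muscle and brown fat, by -0.03, none of them called. Cox6b2 was called without knockdown replicate 1 (0.16, adjusted p = 0.0293). Spots of Cox8c, another testis isoform, were well above background on 0 of 3 knockdown and 1 of 3 vector arrays.

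Complex V had 3 genes higher and 11 lower of 17 (background 23.7% and 21.1%), and the lowest median of the 5 enzymes, -0.24. In all, 3 of 5 genes of the F1 part, the catalytic head with the central stalk, were lower and 1 higher. Of 12 genes of the membrane part and peripheral stalk, 8 were lower and 2 higher. Within the first slide, which held 1 array of each group, the median was -0.20, and within the second, with 2 of each, -0.27. From Cy5 alone 0 genes were higher and 5 lower (background 14% and 16.2%), with a median of -0.21.

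Atp5h, subunit d of the peripheral stalk, had log2 ratios of 1.496, 1.517 and 1.492 in the Snd1 knockdown and 2.29, 2.26 and 2.27 in vector. The groups were far apart relative to their spread, and Atp5h was 1.71-fold lower (-0.77 ± 0.04 SE, adjusted p = 2.23e-06), with a second probe at -0.64. From Cy5 alone, however, its difference was -0.34 with an adjusted p of 0.237. Atp5j2, subunit f of the membrane part, read -0.22, -0.15 and -0.16 in the knockdown and 0.24, 0.30 and 0.28 in vector, apart on all arrays and 1.37-fold lower (adjusted p = 6.81e-05). Atp5o, the stalk subunit that confers oligomycin sensitivity, had 0.42, 0.41 and 0.38 in the knockdown and 0.65, 0.83 and 0.80 in vector, and was 1.28-fold lower (adjusted p = 0.00109).

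In the F1 part, Atp5e, the epsilon subunit, was lower by 0.29 on the log2 scale (adjusted p = 0.0146), a call that was lost without vector replicate 2 or 3 (adjusted p = 0.0546 and 0.056). The catalytic pair differed: Atp5a1, alpha, was lower (-0.24, adjusted p = 0.00737, second probe -0.60), whereas the brightest probe of Atp5b, beta, gave 0.13 (adjusted p = 0.186) and 2 further probes gave 0.25 and 0.28, both called higher when every probe was fitted. Atp5d, delta, was 1.12-fold higher (adjusted p = 0.0196), and lost the call without 4 of the 6 arrays in turn. Atp5md, a small subunit linked to dimers of the enzyme, was 1.16-fold higher (adjusted p = 0.00437).

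The genes Atp5g1, Atp5g2 and Atp5g3 encode the same mature c subunit of the rotor ring with different import sequences. Atp5g3 had log2 ratios of -0.43, -0.31 and -0.19 in the Snd1 knockdown and 0.03, 0.22 and 0.31 in vector. It was lower on all 3 knockdown arrays, by 1.41-fold (adjusted p = 0.00168), although its arrays were spread more widely than those of most members, and from Cy5 alone the difference was -0.26 (adjusted p = 0.164). Atp5g1 read 0.24, 0.20 and 0.24 in the knockdown and 0.09, 0.04 and 0.04 in vector, the opposite order, and was 1.13-fold higher (adjusted p = 0.0109). Atp5g2 differed by -0.07 (adjusted p = 0.467), and its second probe by -0.15, called when every probe was fitted.

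All 54 called members had the same sign on both slides, as had 73 of the 82 tested, but the calls used both slides, so this is no separate check. No member's probes differed from each other by over 1.5-fold. Only those of Ndufa12 differed in sign (0.0028, 0.10 and -0.0016, none called). When every probe was fitted 23 of 102 were higher and 45 lower, against 23.6% and 22.1% of 33572 probes. In the motif counts, the receptor motif was in 6 of 33 promoters of members called lower, 0 of 15 called higher and 2 of 20 not called. The YY1 motif was in 5, 1 and 0 of the same sets, the NRF1 motif in 10, 3 and 6, and the ETS core in 7, 4 and 5. These are counts of few genes with no test.

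Members on some chromosomes leaned one way. On chromosome 17, 4 of 6 tested members were higher (Cox7a2l, Ndufa11, Ndufb10 and Ndufa7), with a median of 0.31, whereas 28.7% of the 834 named features there were higher and their median was 0.031. All 3 members on chromosome 16 and all 3 on chromosome 3 were lower, as were 3 of 4 on chromosome 6, with a median of -0.43, and 4 of 6 on chromosome 13, where 28.2%, 28.5%, 30.5% and 30.7% of named features were lower in the same order. On chromosome 2, 4 of 6 members were lower, on chromosome 7, 5 of 8, and on chromosome 18, 2 of 2, with 21.4%, 23.3% and 34.4% of named features lower. Medians of all named features on a chromosome spanned only -0.041 to 0.090, and with its own chromosome's median taken off each member, the members' median was -0.12. The chromosomes were singled out after their values were seen.

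**Figure D3:**
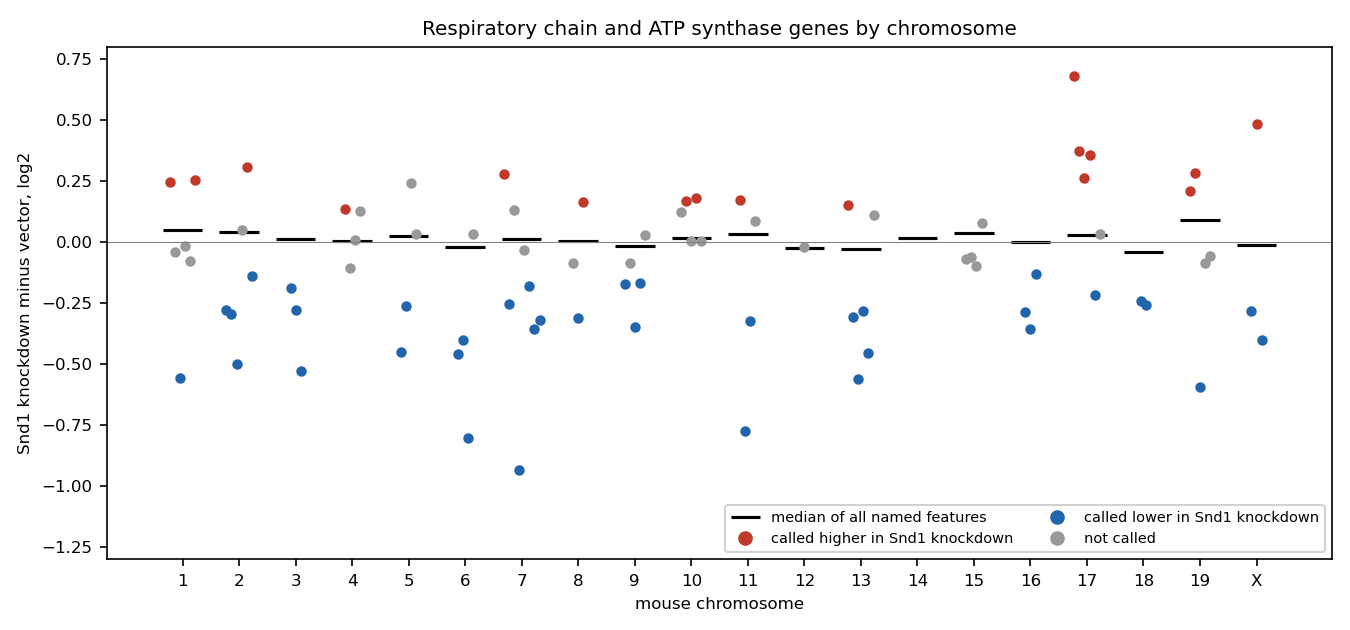
Log2 difference, Snd1 knockdown minus vector, of each tested member by mouse chromosome (point: 1 gene, red called higher, blue called lower, grey neither). Black bars are medians of all named features on a chromosome and stay between -0.041 and 0.090, while 4 of 6 members on chromosome 17 are called higher and all 3 on chromosome 16 lower.

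Assembly factors are not subunits but build the same enzymes. Of 48 tested, 16 were higher and 17 lower (background 23.7% and 21.1%), with a median of -0.013. Split by the enzyme they serve, a split made after values were seen, 7 of 13 factors of complex I were lower and 2 higher (median -0.16), led by Foxred1 at -0.66 (adjusted p = 2.03e-05). Of 4 factors of complex V, 3 were lower and 0 higher (median -0.42): Atpaf1 (-0.46), Tmem70 (-0.43) and Fmc1 (-0.41). Factors of complex IV were more often called higher, 9 of 21, with 4 lower (median 0.090). Cox19, a copper-handling protein, was higher by 0.71 (adjusted p = 6.25e-06) and Coa5 by 0.67 (adjusted p = 1.13e-05).

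**Figure D4:**
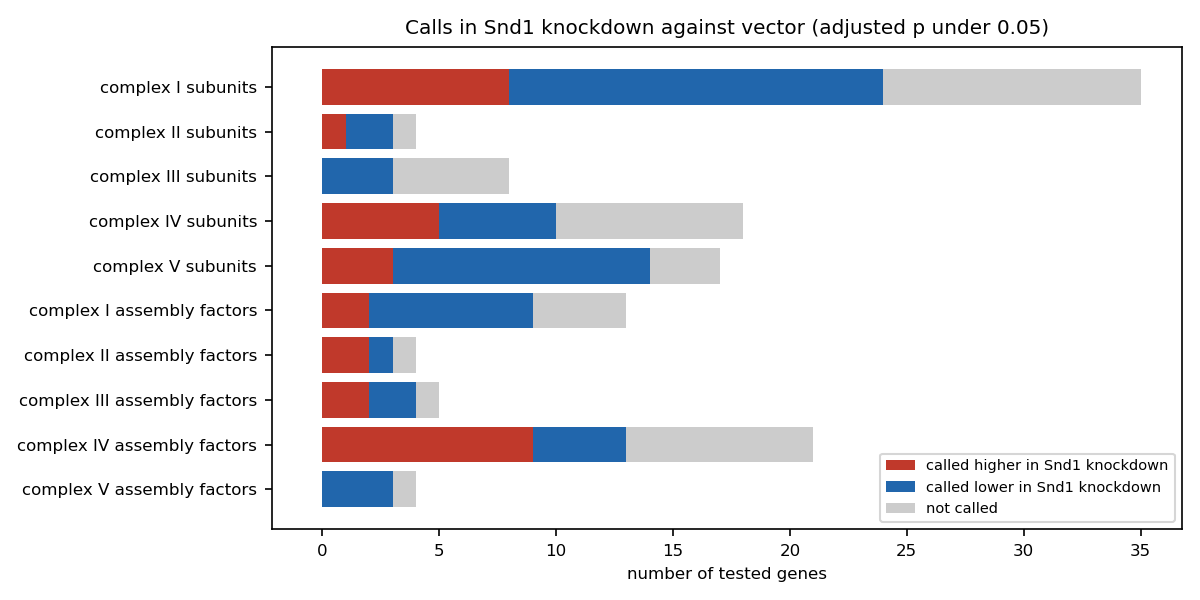
Number of tested genes called higher (red), called lower (blue) or not called (grey) in the Snd1 knockdown against vector, for subunits of each complex and for the assembly factors of each complex. Lower calls outnumber higher calls among subunits and factors of complexes I and V (16 to 8 and 11 to 3 for subunits). They also do among the few subunits of complexes II (2 to 1) and III (3 to 0). Higher calls outnumber lower calls among factors of complex IV (9 to 4). Over all features 23.7% were called higher and 21.1% lower.

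Among 19 tested regulators of mitochondrial biogenesis and mtDNA expression, 7 were higher and 7 lower (background 23.7% and 21.1%), with a median of 0.0083. Esrra, an oestrogen-related receptor that activates genes of the chain, had log2 ratios of 1.16, 1.14 and 1.11 in the Snd1 knockdown and -0.28, -0.26 and -0.22 in vector. The knockdown arrays were all far higher, and the difference was 1.39 (adjusted p = 1.74e-07). Myc, a growth-promoting transcription factor, was lower (-0.69, adjusted p = 9.2e-06), as was Ssbp1, which coats single-stranded mtDNA (-0.47, adjusted p = 0.000141). Of 13 genes of electron carriers and coenzyme Q synthesis 4 were higher and 2 lower (the same background). Hccs, which attaches haem to cytochrome c (0.49, adjusted p = 2.75e-05), Coq7 (0.45, adjusted p = 0.000341) and Coq8a (0.36, adjusted p = 0.00065), both of coenzyme Q synthesis, were the higher genes with the smallest p.

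Markers of other cell types moved with the knockdown too. In bulk RNA fewer cells of a type and less RNA per cell cannot be told apart. Over all features 23.7% were higher and 21.1% lower. Of 11 luminal epithelial markers 7 were lower and 2 higher, Krt19 (0.89) and Prlr (0.18). The summed ratio of the 11 to the reference was 45.1 to 54.0 in the Snd1 knockdown and 61.3 to 71.0 in vector. Of 9 fibroblast markers 6 were higher and 0 lower, with a median difference of 0.20, summing to 3.69 to 3.78 in the knockdown and 1.54 to 1.66 in vector. Among them Postn had log2 ratios of 0.85, 0.90 and 0.87 in the knockdown and -1.82, -1.87 and -1.85 in vector. Its ratios were the highest of the list in the knockdown, so it weighs most in the knockdown sum. Dcn (0.02), Lum (0.10) and Thy1 (0.20) were not called. Of 9 adipocyte markers 5 were higher and 0 lower, with a median difference of 0.34, summing to 30.7 to 33.3 in the knockdown and 14.5 to 15.6 in vector. Among them Cidea had log2 ratios of 4.39, 4.14 and 4.19 in the knockdown and 2.53, 2.11 and 2.10 in vector, and genes as high as this weigh most in a sum of ratios. Plin1 (0.08), Lep (-0.01), Cidec (-0.04) and Ucp1 (0.03) were not called. Striated muscle markers, of the tissue that Cox7a1 and Cox6a2 are known from, had 1 of 13 higher and 3 lower and summed to 13.6 to 13.9 in the knockdown and 15.5 to 16.5 in vector. Of 7 basal epithelial markers 2 were higher and 4 lower, of 7 leukocyte markers 2 and 1, and of 6 endothelial markers 1 and 2. The part of these shifts in the members' values was not tested.

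The rescue arrays address whether the subunit transcripts differ between Mtdh described as deficient in Snd1 binding and wild-type Mtdh, at the unequal Mtdh levels given above. With 1 array a group there is no test and no replicate check. For this, 82 members had Cy5 well above background on 1 or both arrays. Of these, 0 were at least 1.2-fold higher and 2 at least 1.2-fold lower in W391D rescue than in wild-type rescue, against 2.29% and 3.02% of 27027 features. The median difference was 0.0083, beside -6e-04 over all features, and the members ranged from -0.30 to 0.24. By complex the medians were 0.0068 (I), 0.0073 (II), 0.080 (III), 0.0020 (IV) and 0.016 (V).

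The 2 members lower by over 1.2-fold were Cox6a2, at -3.92 in W391D rescue and -3.62 in wild-type rescue, and Atp5h, at 1.86 in W391D rescue and 2.15 in wild-type rescue. Ndufa4 (1.05 and 1.31 in the same order) and Cox7a1 (-0.23 and -0.03) were next lowest. Among the highest was Ndufa8, at 0.75 in W391D rescue and 0.51 in wild-type rescue. The differences of Cox7b (0.20) and Uqcrq (0.18), a small subunit of complex III, were also among the highest. None of these sizes can be set against a spread between replicates.

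The rescued line also differed from the vector cells of line WTA, with which it shares the drug but neither line, construct nor slide, so these cannot be told apart. Both rescue arrays lay below all 3 vector arrays for 58 of 82 members (background 28.0%) and above them for 14 (background 34.4%). From Cy5 alone the counts were 34 (background 30.3%) and 9 (background 24.9%). This comparison was added after seeing the data. The median of the 2 rescue arrays' mean minus the vector mean was -0.17, beside 0.018 over all features. All 4 genes of complex II were among the 58, and Sdhb read 0.12 in W391D rescue and 0.12 in wild-type rescue, against 0.69, 0.80 and 0.72 in vector. The widest differences were those of Sdhb and Cox7b (both -0.62), Atp5a1 (-0.61) and, upward, Atp5j2 (0.78) and Ndufa13 (0.53), genes chosen after their values were seen.

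**Figure D5:**
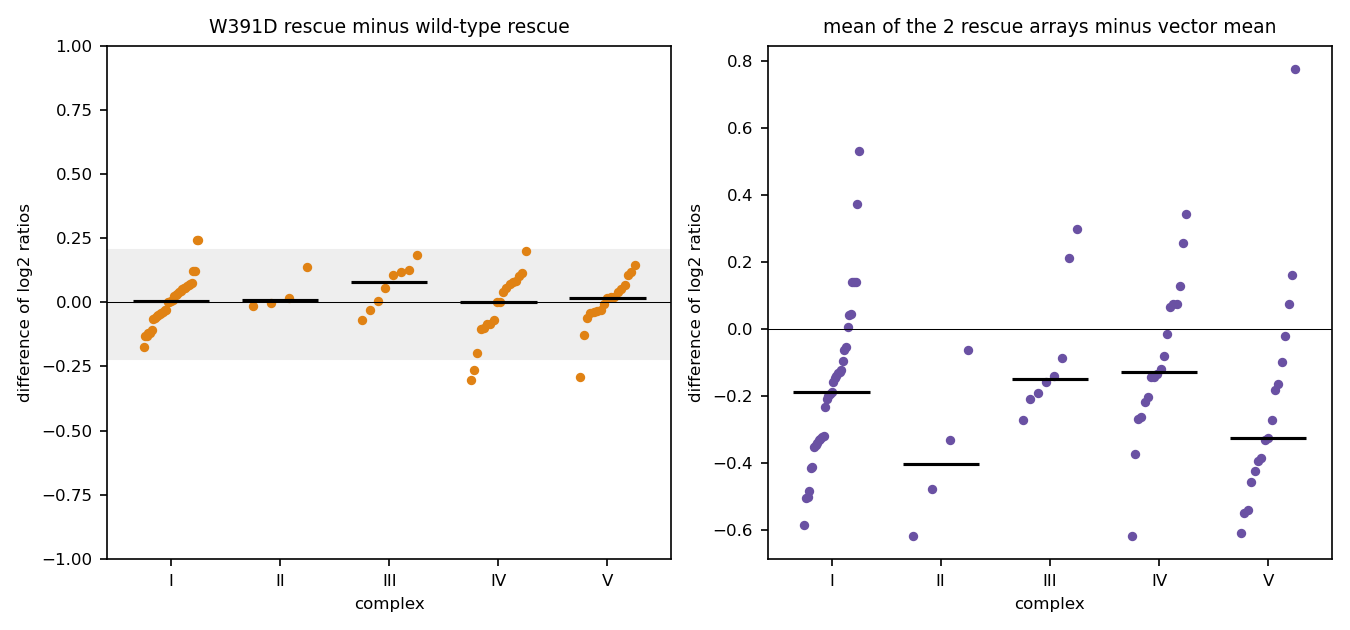
Left, difference of log2 ratios, W391D rescue minus wild-type rescue, of each member by complex (point: 1 gene, bar: median of the complex, shaded: central 90% of all features compared). Right, mean of the 2 rescue arrays minus the mean of the 3 vector arrays, drawn the same way without the band. The left points lie between -0.30 and 0.24 around medians near 0, and the right medians all lie below 0.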

How the data were processed

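RNA of 8 samples was measured on 2-colour Agilent arrays, and groups were taken from the labels. Per the file headers, the deposited spot intensities are medians over pixels in Cy5 and Cy3, with medians of the local background, that Agilent Feature Extraction wrote without normalization. The headers give its version as 11.0.1.1 and the submitters' processing notes as 9.5.3.1. Log10 ratios of Cy5 over Cy3, deposited beside them, had been background-subtracted and dye-normalized by that software, per the file headers. The deposited value table holds log2 ratios of the authors, which matched those log10 ratios array by array (r of 0.9878 to 1, slopes of 1 to 1.001, and 93.9% to 98% of 41156 probes equal within 0.01). Its column medians were 0.091, 0.105 and 0.118 for Snd1 knockdown, 0.146, 0.119 and 0.116 for vector, 0.035 for W391D rescue and 0.026 for wild-type rescue, so it was not centred. Both were used as alternatives. The deposited flags for well above background and outlier spots are the authors' software's own.

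Intensities were background-corrected (normexp, offset 50) and log ratios normalized within arrays by loess in limma 3.58.1 (R 4.3.3). The 1639 control spots and 77 to 142 outlier spots per array had weight 0. Spots of a probe were averaged, and the brightest probe stood for a gene. Symbols came only from accessions matched to a RefSeq table of GRCm38.p6, another build than the mm9 of the headers, which named 27668 of 41174 probes; its coordinates belong to the printed promoters alone. Snd1 knockdown and vector were compared with lmFit and eBayes over 25682 features (Cy5 flagged well above background on 3 or more of the 6 arrays). Benjamini-Hochberg adjustment ran over all of them, and each adjusted p printed for a gene is from limma. Differences between rescue arrays, without replicates, were counted past 1.2-fold. The fit was tested on simulated data.

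The 2 groups carry the same replicate numbers. Deviations from group means correlated at 0.536, 0.252 and 0.262 for same-numbered arrays. Knockdown replicate 2 correlated with vector replicate 3 at 0.317, and knockdown replicate 3 with vector replicate 2 at 0.19. Same-numbered arrays were treated as pairs, with a block, in an alternative, and the slide was the block in another. The correlations follow the slides and not the numbers within a slide. Replicates 1 of both groups lay on 1 slide, the other 4 arrays on another, and each rescue array on its own. Within each complex the up to 5 called genes with the largest increase and decrease, all of complex II, isoform genes and the 4 highest and lowest rescue differences are named, and in other lists the 3 called genes with the smallest p. A gene that this rule took is not reported here by name. The members and lists were chosen with earlier results of these data known.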

Additional observations from a re-analysis of the deposited data

How the results depend on the processing

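Of the 54 called members, 21 kept sign and call in all 22 alternatives of the knockdown comparison, 19 lost the call only at an adjusted p under 0.01 or from Cy5 alone, and none changed sign while called. The calls of Cox6a2, Cox7c, Ndufb4, Ndufs3, Ndufb6 and Atp5d were lost in 8 or more. Uqcr10, Cox8a, Ndufa7, Atp5md, Cox7a2 and Cox7b were among the members that lost the call in 1 alternative. Their largest adjusted p-values in any alternative were 0.134 (Cox7b) to 0.379 (Uqcr10). The number of members higher in the Snd1 knockdown, 17, was 11 with median centring (background 18.8%) and 11 at an adjusted p under 0.01 (background 17.6%). It was 4 from Cy5 alone (background 14%). The number lower, 37, was 21 from Cy5 alone (background 16.2%). There, all features called higher were 3604 in place of 6074 and lower 4164 in place of 5423. Leaving out 1 array in turn gave 13 to 17 higher (background 20.1% to 23.5%) and 34 to 37 lower (background 18.5% to 20.9%). The members' median, -0.0868, was -0.1478 with median centring and -0.1183 minus each chromosome's median. It was -0.0524 within the first slide, with 1 array of each group, and -0.1116 on the second slide alone. The median of complex IV was 0.035 within the first slide and -0.021 within the second. With 1 array left out the members' median was -0.1138 to -0.0754, lowest without knockdown replicate 1. With the replicate number as a block 19 were higher and 37 lower (background 27.2% and 23%) with the same median. With the slide as a block, which the correlations between arrays follow, the counts were 21 and 37 (background 28.3% and 23.7%). Neither block moved these counts by over 1.5 times.

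In W391D rescue against wild-type rescue, 0 members were higher and 2 lower by 1.2-fold. These counts were 0 and 5 with median centring (median -0.0963, all features -0.0254, background 4.34% and 5.14%). They were 2 and 1 with scaling between arrays (background 2.46% and 3.52%) and 2 and 9 from Cy5 alone (median -0.0235, background 12.5% and 12.7%). With the mean of a gene's probes they were 0 and 1 (background 1.91% and 2.52%), and 0 were lower at 1.5-fold (background 0.0851%). Both rescue arrays lay above all vector arrays for 14 members (background 34.4%). This was 7 with median centring (background 28.3%) and 9 from Cy5 alone (background 24.9%). They lay below all vector arrays for 58 (background 28.0%), or 34 from Cy5 alone (background 30.3%). The counts of rescue against vector arrays, their 6 alternatives and the chromosome median were chosen after seeing the data. The cause of these differences between settings was not tested. Dim isoform probes limit what can be seen: Cox4i2, Cox7b2 and Cox8b had Cy5 signals of 85 to 168.5 in the knockdown and 77 to 192.5 in vector, over backgrounds of 61 to 72.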

Other observations

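Of 23 tested genes of the citric acid cycle and pyruvate dehydrogenase, 6 were higher and 6 lower in the Snd1 knockdown (background 23.7% and 21.1%). These genes supply the chain with electrons, and their median was -0.055. Pdk4 encodes a kinase that switches pyruvate dehydrogenase off. It had log2 ratios to the reference of 1.23, 1.55 and 1.46 in the knockdown and -1.36, -1.53 and -1.20 in vector. Its groups were far apart, and the difference was 2.78 (adjusted p = 4.38e-07, limma). Pdha1, a subunit of the dehydrogenase that Pdk4 acts on, was also higher (0.75, adjusted p = 5.39e-06). Idh2, mitochondrial isocitrate dehydrogenase, was lower (-0.52, adjusted p = 0.000201). The related kinase gene Pdk1 was lower too (-0.295, adjusted p = 0.00977), and Pdk3 (-0.12) was not called.

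Of 9 tested carriers of nucleotides and phosphate across the mitochondrial membranes, 3 were higher and 1 lower (background 23.7% and 21.1%). The phosphate carrier Slc25a3 (0.36, adjusted p = 0.000448) and the ADP/ATP carrier Slc25a5 (0.31, adjusted p = 0.00232), which serve ATP synthase, were higher in the knockdown, and Ucp2, an uncoupling protein, was lower (-0.49, adjusted p = 0.000123).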
